A study of Mus musculus with 4 samples.

Results

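F13a1-positive cells with little Lyz2 and little Elane, which carry the marker pattern of monocyte progenitors, were described among blood cells that had entered a sort for sinusoidal endothelium of mouse bone. Members were chosen by these measured values, which are not findings: a member held at least 2 UMIs (unique molecular identifiers, each counting 1 captured transcript) of F13a1, under 2% of its UMIs from Lyz2, under 0.5% from Elane, under 1% from Ngp and Camp together, and fewer than 3 UMIs of Pf4 and Ppbp. Cells also needed at least 200 detected genes and under 10% mitochondrial UMIs. Of 904 such cells in the Sca-1-negative gate 105 were members, out of 3567 cells in the 4 libraries of the series. The sort took lineage-negative cells that carried endomucin, CD31 and VE-cadherin but no Sca-1. One library came from mice labelled ID1 +/+ ID3+/- (the labelled control, also called WT in its title), and the other from mice labelled ID1 -/- ID3-/- (the labelled knockout). All mice carried CDH5-CreER, a recombinase switched on by tamoxifen and driven by the promoter of the VE-cadherin gene, and all were given tamoxifen on 5 days in a row to remove ID1. Since that promoter is a tool for endothelium, blood cells need not carry the deletion. How many mice were pooled, their age, and which exons the deletions remove were not stated.

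Monocytes are made in bone marrow from progenitors that share an ancestor with neutrophils. The transcription factor IRF8 directs these cells towards monocytes and dendritic cells, while C/EBP-epsilon and GFI1 direct the other branch towards neutrophils. Progenitors on the monocyte side still make some of the granule enzymes myeloperoxidase and proteinase 3, divide often, and gain lysosomal, Fc receptor and chemokine receptor genes as they mature into Ly6C-positive monocytes that leave the marrow by the receptor CCR2. F13a1 encodes the A subunit of coagulation factor XIII, which crosslinks fibrin and is made by monocytes and macrophages as well as by the platelet lineage.

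Each group was 1 library. Differences therefore lack any replicate check, and no p-value is given. The 95% intervals reflect counting error alone: Clopper-Pearson for shares, exact Poisson for levels, and exact intervals conditional on the total for ratios. Levels are UMIs summed over cells and scaled to a total of 1000000 UMIs (CPM). Members were deep, with a median of 21088 UMIs per cell in the labelled control and 18129 in the labelled knockout, against 6142 and 15428 over all cells of the same libraries. Their UMIs summed to 241727 and 1711412. The 2 sinusoidal libraries shared 0 barcodes, and 1 labelled-knockout member shared its barcode with a cell of the labelled-knockout library of the Sca-1-positive gate. The labelled tissue was not seen in the members. Of 8 endothelial markers (Cdh5, Kdr, Flt4, Stab2, Plvap, Ptprb, Tek and Emcn) 1 was detected in the labelled-control members, with 3 UMIs, and 2 were detected in the labelled-knockout members, with 2 UMIs. Cdh5, the gene of the sorted VE-cadherin, had 0 UMIs in either group of members.

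The members made up 12 of 351 cells of the labelled control, or 3.42% (1.78 to 5.90), and 93 of 553 cells of the labelled knockout, or 16.8% (13.8 to 20.2). The ratio of these shares was 4.92 (2.69 to 9.86). A minimum of 2 UMIs is easier to reach in a deeper cell. With each cell thinned to 3000 UMIs before F13a1 was counted, the shares were 1.71% and 10.5%. With an Elane limit of 0.1% they were 2.28% and 6.33%, a ratio of 2.78. Cells with at least 2 F13a1 UMIs numbered 158 and 302 in all. The Lyz2 limit left out 117 of them in the labelled control and 72 in the labelled knockout, the Elane limit 30 and 139, the Ngp and Camp limit 0 and 6, and the Pf4 and Ppbp limit 0 and 0. Most F13a1-positive cells outside the members were thus Lyz2-high in the labelled control and Elane-high in the labelled knockout. The members were set against both of these groups. Under the same limits on Ngp, Camp, Pf4 and Ppbp, Elane-high precursors (at least 0.5% Elane) numbered 63 and 247, or 17.9% and 44.7% of the gate, and Lyz2-high cells (at least 2% Lyz2 with less Elane) numbered 150 and 72, or 42.7% and 13.02%.

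**Figure D1:**
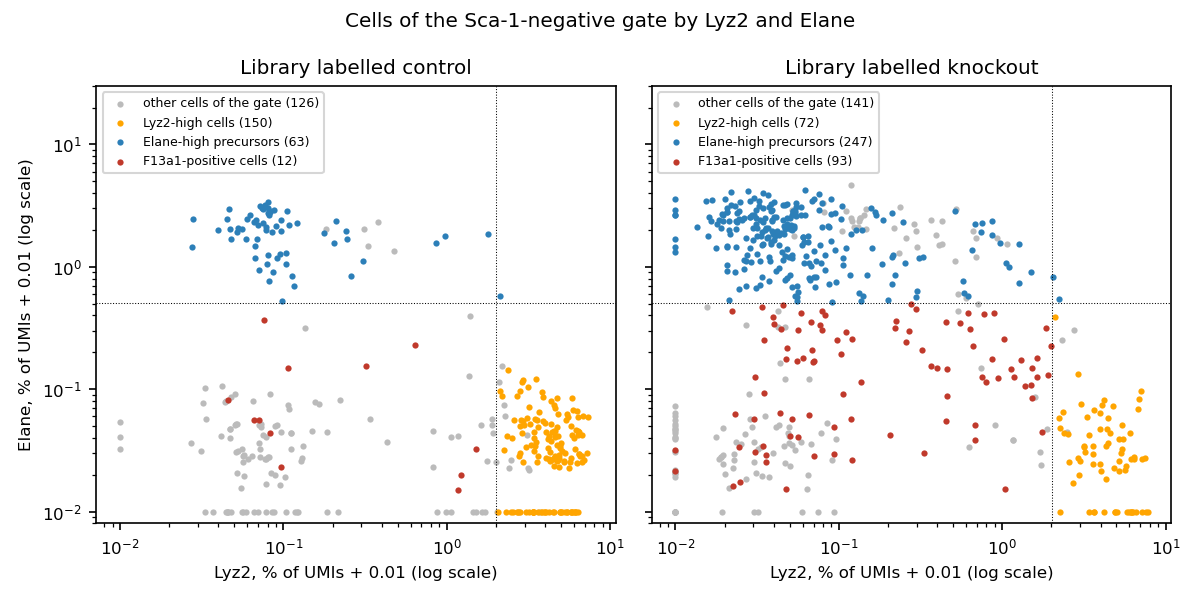
Every cell of the Sca-1-negative gate by its percent of UMIs from Lyz2 (horizontal, log scale) and from Elane (vertical, log scale), with 0.01 added, in the labelled-control (left) and labelled-knockout (right) libraries; dotted lines mark the limits of 2% and 0.5%. The 12 and 93 members (red) lie below both limits, apart from 63 and 247 Elane-high precursors (blue) and 150 and 72 Lyz2-high cells (orange); grey cells below both limits lack the 2 F13a1 UMIs or, like those beyond a limit, have too much Ngp and Camp or Pf4 and Ppbp.

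Most members lay well below the limits. Median shares in the labelled control and knockout were 0.0921% and 0.101% for Lyz2, and 0.0463% and 0.139% for Elane. The highest member came closer to each limit in the labelled knockout, which had 93 members against 12. The highest Lyz2 share of a member was 1.497% in the labelled control and 1.98% in the labelled knockout, and the lowest among the F13a1-positive cells left out for Lyz2 was 2.29% and 2.10%. For Elane these values were 0.356% and 0.486% inside and 0.692% and 0.508% outside. Members with only 2 or 3 F13a1 UMIs numbered 3 in each library, and 6 and 12 cells with 1 F13a1 UMI met all other criteria.

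The members carried the marker genes given for monocyte progenitors. F13a1 itself (ENSMUSG00000039109, minus strand of chromosome 13, 36867178 to 37050244 in GRCm38) was used to choose them and stood at 534 CPM in the labelled control and 801 CPM in the labelled knockout. Ly6c2, which encodes the Ly6C surface antigen (chromosome 15, 75108158 to 75111970), stood at 2068 and 3298 CPM. Ms4a6c, a membrane protein gene of the MS4A family (chromosome 19, 11469366 to 11482192), stood at 496 and 711 CPM. UMIs of both Ly6c2 and Ms4a6c were found in 12 of 12 and in 90 of 93 members. These markers were not particular to the members. Lyz2-high cells held more F13a1 (938 and 1081 CPM) and Ms4a6c (1431 and 1385 CPM), with Ly6c2 at 2748 and 3240 CPM. In Elane-high precursors F13a1 stood at 135 and 237 CPM, Ms4a6c at 96.5 and 183 CPM, and Ly6c2 at 2499 and 2772 CPM. As a gauge of free RNA, 13 cells per library with erythroid markers held F13a1 and Ms4a6c at 6.80 CPM each in the labelled control and 6.11 CPM each in the labelled knockout, at median depths of 11262 and 9861 UMIs. Ly6c2 stood at 68.0 and 67.2 CPM in those cells, and Irf8 and Csf1r had 0 UMIs in both libraries.

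Within the members, Ly6c2 ranged widely. Per cell it ran from 46.5 through a median of 1879 to 6025 CPM in the 12 labelled-control members, and from 0 through 3752 to 8317 CPM in the 93 labelled-knockout members. Below 1000 CPM lay 5 of 12 members of the labelled control (41.7%, 15.2 to 72.3) and 20 of 93 of the labelled knockout (21.5%, 13.7 to 31.2). Both sets of Ly6c2-low members had UMIs of Cd34, a surface antigen of stem and early progenitor cells, in 5 of 5 and 20 of 20 cells, against 3 of 7 and 31 of 73 of the other members. Cd34 UMIs were found in 1 of 13 erythroid-marker cells in each library. The split at 1000 CPM was set after the values were seen.

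Other genes followed this split in both libraries. In Ly6c2-low members Cd34 stood at 523 CPM in the labelled control and 306 CPM in the labelled knockout, against 39.9 and 75.4 CPM in the others. Sox4, a transcription factor of immature progenitors, stood at 317 and 193 CPM against 47.9 and 29.0 CPM, and Ifitm1 at 772 and 421 CPM against 104 and 55.6 CPM. Cd27, a receptor of the TNF receptor family, stood at 232 and 113 CPM against 32.0 and 15.2 CPM. The other members held more of genes that mature monocytes use. Ccr2 stood at 351 and 363 CPM in them, against 34.3 and 82.7 CPM in the Ly6c2-low cells. Crip1, a small LIM protein gene, stood at 2285 and 2328 CPM against 386 and 363 CPM. Klf4, a transcription factor of monocytes, gave 24 and 259 UMIs in the other members, at 192 and 197 CPM, and 0 and 5 UMIs in the Ly6c2-low ones. Depth differed little across the split, with median UMIs of 21513 and 19351 per Ly6c2-low cell and 20571 and 18104 per other cell. Prtn3 was high on both sides, between 2506 and 3209 CPM in the 4 sets, and Irf8 differed across the split in the labelled control (154 against 911 CPM) more than in the labelled knockout (752 against 811 CPM). Ly6c2 thus stood at 1000 CPM or more in 7 of 12 and 73 of 93 members. The others were F13a1-positive, Cd34-positive cells low in Ly6c2, to which the name of monocyte progenitors applies less clearly. Ly6c2 alone did not set the members apart from Elane-high precursors. Those held it at 2499 CPM in the labelled control and 2772 CPM in the labelled knockout.

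**Figure D2:**
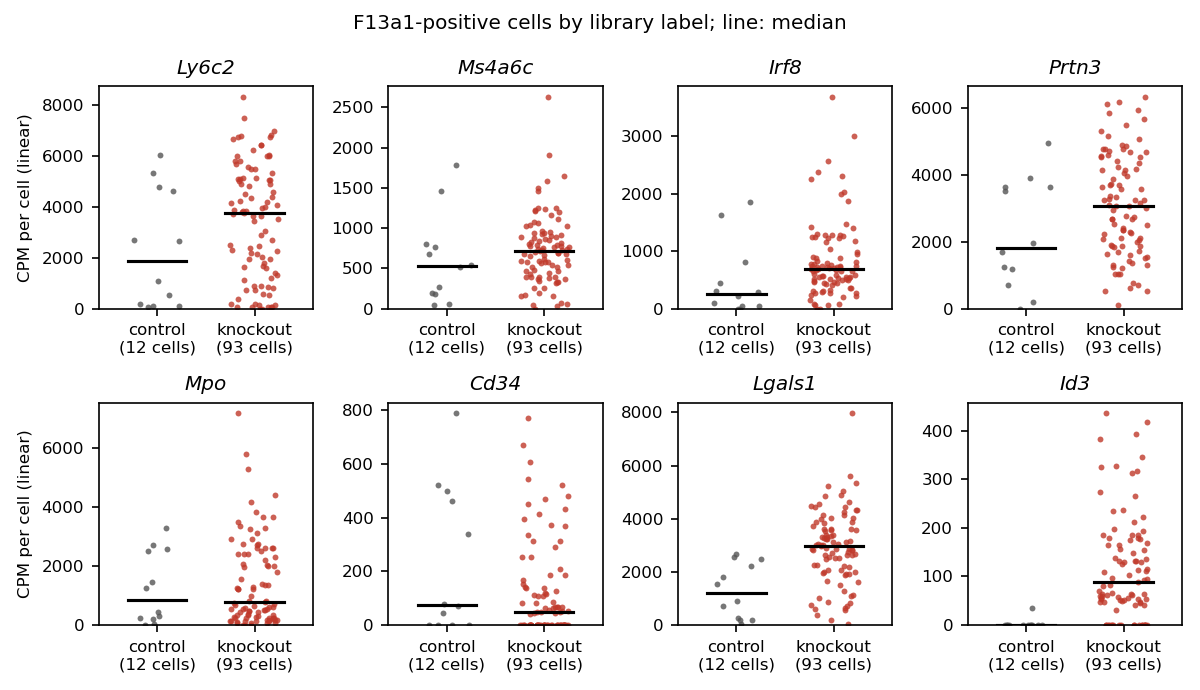
CPM per cell (linear axes) of Ly6c2, Ms4a6c, Irf8, Prtn3, Mpo, Cd34, Lgals1 and Id3 in the 12 labelled-control (dark) and 93 labelled-knockout (red) members; each point is a cell and the line is the median. Ly6c2 spans from near 0 to over 6000 CPM in both libraries, and Id3 was seen in 1 labelled-control member and in 74 labelled-knockout members.

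Id1 and Id3 encode helix-loop-helix proteins that hold E proteins away from DNA, and they are the genes targeted in this study. Id3 (ENSMUSG00000007872, which lies on chromosome 4 from 136143497 to 136145755) went against the labels. It gave 1 UMI in the 12 labelled-control members, 4.14 CPM, and 193 UMIs in the 93 labelled-knockout members, 113 CPM, in 74 cells. The ratio was 27.3 (4.84 to 1082). The median labelled-knockout member held 2 Id3 UMIs and the highest 7. Erythroid-marker cells held Id3 at 0 CPM in the labelled control and at 42.8 CPM, in 2 of 13 cells, in the labelled knockout. After thinning to 3000 UMIs, Id3 was found in 0 of 12 and in 33.3% of the members. Id3 was also higher in the labelled knockout in Elane-high precursors (16.9 against 44.4 CPM, ratio 2.62, 1.65 to 4.39) and in Lyz2-high cells (126 against 342 CPM, ratio 2.70, 2.12 to 3.46). Ly6c2-low members held 0 Id3 UMIs in the labelled control and 17 in the labelled knockout. Id1 gave 6 and 66 UMIs, 24.8 and 38.6 CPM, a ratio of 1.55 (0.677 to 4.39) whose interval includes 1. Tags from outside the deleted part would check nothing, so the labels are carried here as given. Every direction by label rests on them, the ratio of member shares included. E protein genes were lower in the labelled knockout, Tcf3 at 64.9 against 103 CPM (ratio 0.627, 0.404 to 1.01) and Tcf4 at 43.8 against 70.3 CPM (0.623, 0.364 to 1.13), with intervals that reach 1.

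Against Elane-high precursors, the members were lower in most granule genes and in both measured neutrophil transcription factors, and higher in many monocyte markers. Since classes were cut by expression, this is a description, and a gene was counted when it was at least 2-fold higher or lower in both libraries with 20 CPM added to each level. Of 2949 genes with enough UMIs 65 were higher (2.2%) and 62 lower (2.1%). Of 14 monocyte progenitor markers 10 had enough UMIs and 7 of these were higher, or 6 of 9 without F13a1, which chose the members. Irf8, Emb and Pld4 were among them. Irf8 stood at 546 and 797 CPM in the members of the labelled control and knockout, against 93.9 and 199 CPM in Elane-high precursors. Of 16 measured classical monocyte markers 9 were higher and 0 lower. Lysosome genes were higher in 3 of 13 and lower in 0. Pattern recognition and Fc receptor genes leaned the other way, with 2 of 5 lower (Fcgr3 and Clec12a) and 1 higher (Ly86). That list summed to 716 and 935 CPM in the members against 1625 and 1523 CPM in Elane-high precursors. S100a4, S100a6 and S100a10, genes of small proteins of the S100 family, were among the 12 named for the largest differences, while S100a8 and S100a9 of that family were lower. S100a6 stood at 467 and 640 CPM against 101 and 75.7 CPM, and S100a4 at 170 and 235 CPM against 20.3 and 13.6 CPM. Lgals3, the gene of galectin-3, stood at 927 and 980 CPM against 155 and 134 CPM, and Crip1 at 1369 and 1870 CPM against 307 and 295 CPM. Psap, which encodes the precursor of the saposins of the lysosome, stood at 1042 and 1213 CPM against 207 and 254 CPM. The protease gene Ctss stood at 290 and 195 CPM against 69.4 and 34.4 CPM. Tmsb10, which encodes an actin-binding thymosin, the intermediate filament gene Vim and the lysosomal thiol reductase gene Ifi30 completed the list with Ms4a6c.

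Of 14 primary granule genes 12 were lower in the members than in Elane-high precursors, or 11 of 13 without Elane, which defines both classes, and 0 were higher. Mpo, which encodes myeloperoxidase, stood at 1531 and 1533 CPM against 6749 and 6667 CPM. Prtn3 stood at 2631 and 3149 CPM against 8156 and 7369 CPM, and Nkg7 at 190 and 151 CPM against 2130 and 1911 CPM. Elane, at 1055 and 1768 CPM against 19042 and 18692 CPM, was part of the choice. Both measured granulocyte transcription factors were lower: Cebpe stood at 8.27 and 12.9 CPM against 322 and 239 CPM, and Gfi1 at 20.7 and 11.7 CPM against 76.1 and 74.3 CPM. Cd63, a membrane protein of granules, stood at 78.6 and 37.4 CPM against 1004 and 804 CPM. The remaining named genes that were lower were S100a8, S100a9, Wfdc21, Rgcc, Pglyrp1, Ms4a3, Pde4d and Fcnb. S100a8 and S100a9 stood at 625 and 339 CPM in labelled-control members and at 497 and 320 CPM in erythroid-marker cells of that library. In the labelled knockout these values were 274 and 130 CPM in members against 134 and 110 CPM. Ngp and Camp stood at 132 and 128 CPM in labelled-control members against 170 and 150 CPM in its erythroid-marker cells, and at 68.9 and 88.2 CPM against 42.8 and 85.5 CPM in the labelled knockout. In CPM, Camp and S100a9 in both libraries, and Ngp in the labelled control, were thus at or near the level of erythroid-marker cells. S100a8 in the labelled control, at 625 against 497 CPM, was not far above that level. Erythroid-marker cells were shallower, with median UMIs of 11262 and 9861 against 21088 and 18129 in members. A like CPM therefore does not show a like amount of free RNA per cell.

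**Figure D3:**
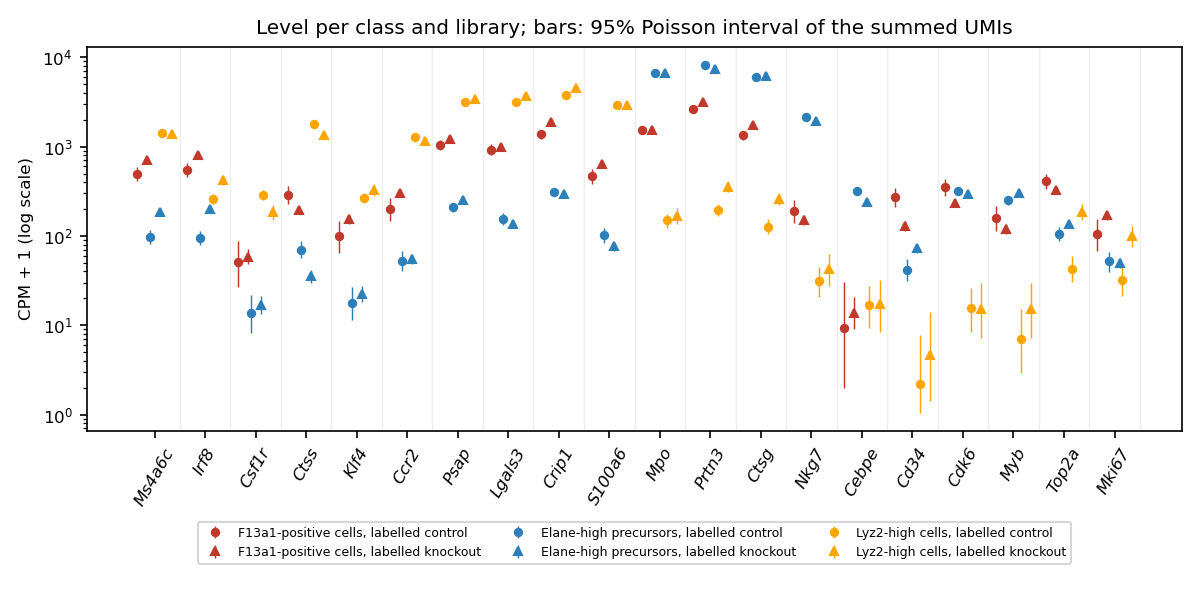
Level of 20 genes (CPM with 1 added, log axis) in the members (red), Elane-high precursors (blue) and Lyz2-high cells (orange) of the labelled-control (circles) and labelled-knockout (triangles) libraries; bars are 95% Poisson intervals of the summed UMIs. Monocyte genes such as Ms4a6c and Psap lie between the other classes in the members, granule genes such as Mpo and Prtn3 do too, and Irf8, Cd34 and Top2a lie above both.

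Against Lyz2-high cells, the members held less of most mature monocyte genes and more of several primary granule, progenitor and nucleolar genes. Of 3018 genes with enough UMIs 99 were at least 2-fold higher in both libraries (3.28%) and 260 lower (8.61%). Of 20 classical monocyte markers 19 were lower, or 18 of 19 without Lyz2, which defines both classes, and 0 were higher. Ccr2 stood at 199 and 298 CPM in the members against 1265 and 1148 CPM, and Tyrobp, which encodes the adaptor DAP12, at 881 and 1555 CPM against 4310 and 4100 CPM. Pattern recognition and Fc receptor genes were lower in 9 of 12 and higher in 0, with Clec4a1 and Clec4a3, C-type lectin genes, among those named. Complement and chemokine genes were lower in 7 of 8. Ccl6 stood at 99.3 and 59.6 CPM against 1696 and 1436 CPM, Ccl3 at 74.5 and 30.4 CPM against 769 and 684 CPM, and Cxcl2 at 8.27 and 0.584 CPM against 334 and 365 CPM. Csf1r, the receptor for the growth factor of monocytes and macrophages, stood at 49.6 and 57.8 CPM against 288 and 184 CPM, and Cx3cr1 at 12.4 and 25.7 CPM against 169 and 81.0 CPM. Immediate-early and heat shock genes were lower in 10 of 13, with Junb at 128 and 71.3 CPM against 1064 and 698 CPM, and higher in 1, Hsp90aa1. Apoe, Wfdc17, Sirpb1c, Ifitm6, Plbd1 and Lyz2, the last being part of the choice, completed the 12 genes named as lower.

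Genes higher in the members than in Lyz2-high cells were led by Prtn3, Mpo, Mif, Cdk6, Phgdh, Igfbp4, Ctsg and Cd34. Primary granule genes were higher in 6 of 11, or 5 of 10 without Elane, and lower in 1, Hp. Late granule genes were higher in 0 of 8 and lower in 2, Cd177 and Mmp8. Prtn3 stood at 195 and 356 CPM in Lyz2-high cells and Mpo at 148 and 167 CPM. Of these, Mif encodes a cytokine, Cdk6 a kinase of the G1 phase and Phgdh the first enzyme of serine synthesis. Cd34 stood at 273 and 129 CPM in the members, from 8 of 12 and 51 of 93 cells, against 1.20 and 3.598 CPM. Ms4a3, Ifitm1, Sox4 and the zinc finger gene Zfp422 were the others named. All 3 measured stem and multipotent progenitor genes (Cd34, Sox4 and Cdk6) and 5 of 7 nucleolar genes (Ncl, Npm1, Nop56, Nhp2 and Gar1) were higher, and 0 of either list lower. Irf8 was higher in the members than in Lyz2-high cells as well, at 546 and 797 against 258 and 423 CPM. With Top2a (410 and 324 CPM in members, 104 and 135 CPM in Elane-high precursors, 42.2 and 185 CPM in Lyz2-high cells), Cd34 and Lgals1 (1278 and 2888, 415 and 830, 905 and 1628 CPM), Irf8 thus stood above both other classes in both libraries. Scrublet, a doublet caller, marked 4 and 3 cells of the 2 libraries, among them 0 and 1 members, and 0 and 1 members held both Xist and Y-linked UMIs.

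The members held many transcripts of dividing cells. After thinning to 3000 UMIs, at least 2 UMIs of 20 G2/M genes were found in 91.7% (61.5 to 99.8) of labelled-control and 89.2% (81.1 to 94.7) of labelled-knockout members. The shares were 69.4% and 62.3% in Elane-high precursors and 12.1% and 32.9% in Lyz2-high cells, where thinning left out 1 and 0 and then 26 and 2 shallow cells. Unthinned shares were 91.7% and 98.9% in members, 96.8% and 95.5% in Elane-high precursors, and 18.7% and 38.9% in Lyz2-high cells. The G2/M genes summed to 3603 and 3321 CPM in the members, against 1374 and 1328 CPM in Elane-high precursors and 557 and 2512 CPM in Lyz2-high cells. Against Lyz2-high cells, 0 of 11 measured G2/M genes were 2-fold higher or lower in both libraries. Against those precursors 6 of 13 measured G2/M genes were at least 2-fold higher in both libraries, among them Top2a, which encodes DNA topoisomerase II alpha, the cyclin gene Ccnb1, Ube2c and Nusap1. Ube2c, an E2 enzyme of mitotic exit, stood at 567 and 470 CPM against 152 and 165 CPM. S phase genes differed less, and 0 of 17 passed the 2-fold rule in either direction. Their thinned shares were 75% (42.8 to 94.5) and 87.1% (78.5 to 93.2) in members and 96.8% and 96.4% in Elane-high precursors. The cell cycle inhibitor genes Cdkn2c and Cdkn2d were higher in the members, Cdkn2c at 120 and 128 CPM against 43.2 and 44.9 CPM and Cdkn2d at 174 and 151 CPM against 60.9 and 35.5 CPM.

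Among the members, Mpo ran with other granule genes from cell to cell and against Crip1 and S100a6. Correlations below are Spearman's rho of CPM over the 12 labelled-control and the 93 labelled-knockout members. They describe cells that share a library and a total, and carry no p-value. Of 5624 genes screened, those that followed Mpo most closely in both libraries were Prtn3 (0.75 and 0.74), Mif (0.80 and 0.72), Ctsg (0.98 and 0.69), Igfbp4, Nop10, Myb, Phgdh and Mrpl12. Running against Mpo were Crip1 (-0.83 and -0.78), S100a6 (-0.80 and -0.73), Tmsb10 (-0.59 and -0.80), Alox5ap, Ctsb, Rnase6, Ucp2 and Plp2. Mpo itself ran from 0 through a median of 847 to 3282 CPM in labelled-control members and from 0 through 791 to 7179 CPM in labelled-knockout members. It also went with depth, with a rho against UMIs per cell of 0.81 and 0.25. Cd34 went with Mpo across cells, at 0.47 and 0.55, and Lyz2 ran against it at -0.50 and -0.51, the last within the range that the Lyz2 limit allowed.

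**Figure D4:**
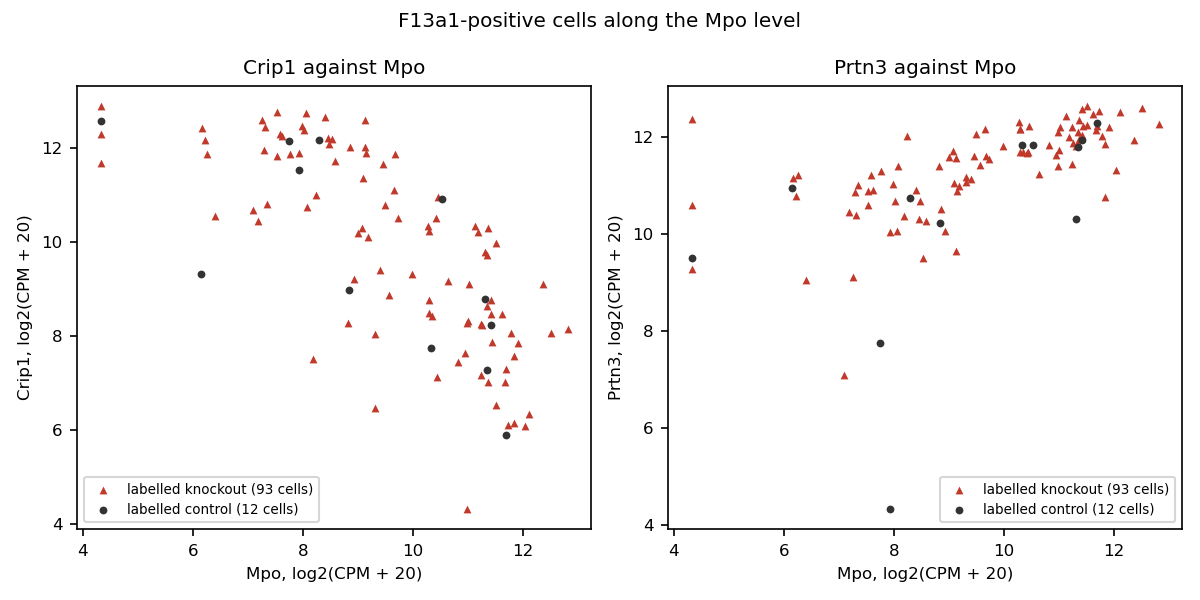
Crip1 (left) and Prtn3 (right) against Mpo, as log2 of CPM with 20 added, in 93 labelled-knockout members (red triangles) and 12 labelled-control members (dark circles). Crip1 falls along Mpo with a rho of -0.83 and -0.78 in the labelled control and knockout, and Prtn3 climbs with a rho of 0.75 and 0.74.

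Irf8 was not tied to this axis in 1 way. Its rho with Mpo was 0.33 in the labelled control and -0.36 in the labelled knockout, and that with Prtn3 was 0.56 and -0.14. Csf1r likewise had a rho with Mpo of 0.37 and -0.20. The genes closest to Irf8 in both libraries were Lbh (0.53 and 0.48), Lgals1 (0.74 and 0.43), H2afv, Trappc1, Ly86, Prdx4, Tspo and Cdkn2c, and those running against it were Calr (-0.44 and -0.40), Tpt1, Cd63, Ydjc, Ptpre, Nle1, Prpf19 and Cd34 (-0.34 and -0.31). At least 2 UMIs each of Irf8 and Mpo were found together in 7 of 12 members (58.3%, 27.7 to 84.8) and 81 of 93 (87.1%, 78.5 to 93.2), and of Irf8 and Prtn3 in 7 of 12 and 88 of 93. In erythroid-marker cells Mpo stood at 279 and 79.4 CPM and Prtn3 at 211 and 110 CPM, with Irf8 at 0. At the depth of the members such levels can bring 2 UMIs of a granule gene, so these shares do not show that a cell made both.

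By label, members of the labelled knockout held more of several monocyte genes, and members of the labelled control more of progenitor genes. The comparison covers 3006 genes with at least 10 UMIs expected in the smaller sum, of which 247 were at least 1.5-fold higher (8.22%) and 277 lower (9.21%) in the labelled knockout. The median log2 ratio of these genes was 0.0045. Of 14 monocyte progenitor markers 12 had enough UMIs, 3 were higher and 0 lower, with a median log2 ratio of 0.49. F13a1, part of the choice, is counted among the 12 and not among the 3. The 3 were Ly6c2 (ratio 1.59, 1.45 to 1.75), Klf4 (1.55, 1.02 to 2.47) and Ctsc (1.54, 1.07 to 2.28). Irf8 had a ratio of 1.46 (1.22 to 1.76) and Ms4a6c 1.43 (1.19 to 1.74). Of 19 measured classical monocyte markers 4 were higher (Cd68, Tyrobp, Fcer1g and Fn1) and 3 lower (Ifitm3, Wfdc17 and Ifi27l2a), with a median of 0.35. Lyz2, part of the choice, is counted among the 19 and was neither. Of 5 measured stem and multipotent progenitor genes 4 were lower and 0 higher, with a median of -0.66. Cd34 stood at 129 against 273 CPM (0.473, 0.358 to 0.632), Sox4 at 67.2 against 178 CPM (0.378, 0.264 to 0.550), Cdk6 at 231 against 352 CPM and Myc at 40.3 against 62.1 CPM. In Elane-high precursors Cd34 and Sox4 were instead higher in the labelled knockout, with ratios of 1.77 (1.30 to 2.45) and 2.07 (1.32 to 3.40). Their direction by label thus did not hold across classes. Ly6c2-low members, in which Cd34 and Sox4 were high, made up 41.7% of the members in the labelled control and 21.5% in the labelled knockout. Over the 7 and 73 members with at least 1000 CPM of Ly6c2, the ratios were 1.09 (0.997 to 1.20) for Ly6c2, 1.09 for Ms4a6c, 0.890 for Irf8 and 1.89 (0.783 to 5.95) for Cd34.

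Genes were named where the whole interval of the ratio lay beyond 1.5-fold, which held for 11 genes that were higher and 56 that were lower in the labelled knockout. Of the latter, 31 were not mitochondrial, ribosomal protein or numbered gene models, and the 12 of these with the smallest ratios are named. Besides Id3, the higher genes were Trem2, St8sia4, Khk, Cst7, Taf6l, Trappc1, Lgals1, Gstm1, Slpi and Tyrobp. Lgals1, which encodes galectin-1, a secreted lectin, had the tightest value, at 2888 against 1278 CPM (ratio 2.26, 2.014 to 2.54). Per cell it ran from 51.3 through 1218 to 2670 CPM in the labelled control and from 47.9 through 2962 to 7978 CPM in the labelled knockout, so the 2 sets overlapped while their medians lay apart. Lgals1 was also higher in the labelled knockout in Elane-high precursors (2.001, 1.82 to 2.20) and in Lyz2-high cells (1.80, 1.63 to 1.99), and stood at 1.64 (1.44 to 1.88) over members with at least 1000 CPM of Ly6c2. Tyrobp stood at 1555 against 881 CPM (1.77, 1.53 to 2.04) and at 1.31 over the same subset. Slpi, a protease inhibitor gene, stood at 697 against 356 CPM (1.96, 1.57 to 2.47), and Gstm1, a glutathione transferase gene, at 363 against 170 CPM (2.14, 1.56 to 3.02). The ratio of Slpi was 1.39 over members with at least 1000 CPM of Ly6c2, and with F13a1 counted from 1 UMI its log2 ratio turned to -1.89. Over members with Xist and no Y-linked UMIs, 2 in the labelled control and 17 in the labelled knockout, the log2 ratio turned to -0.12 for Lgals1, -0.22 for Tyrobp, -0.999 for Slpi and -0.13 for Trappc1. Cst7, the cystatin F gene, stood at 130 against 45.5 CPM, from 11 labelled-control UMIs. Trem2, a receptor that signals through the product of Tyrobp, gave 2 labelled-control UMIs and 89 in 40 labelled-knockout members (6.29, 1.69 to 52.7).

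**Figure D5:**
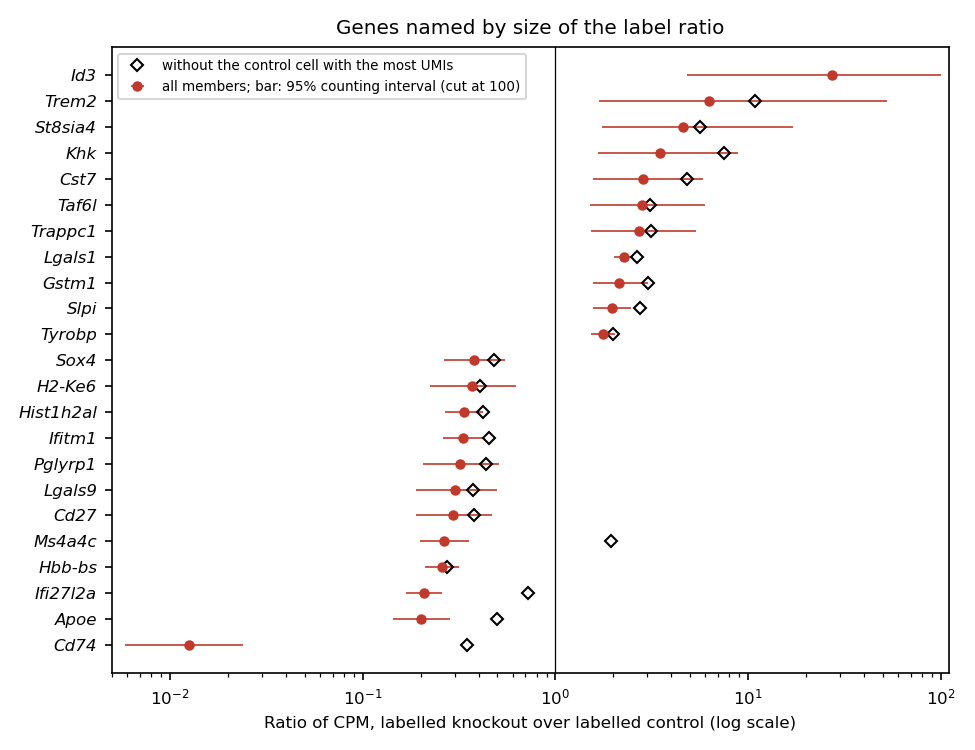
Ratio of CPM in members, labelled knockout over labelled control (log axis), for the 23 genes named by size, with 95% counting intervals as bars that are drawn up to 100. Open diamonds give the ratio without the labelled-control cell that held most UMIs of the gene, which moves Cd74 to 0.347 and carries Ms4a4c to 1.94, and no diamond is drawn for Id3.

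Several genes named as lower rested on 1 labelled-control cell. The shallowest labelled-control member, with 4477 UMIs, held 108 of the 112 UMIs of Cd74, the invariant chain of MHC class II, and 38 of the 63 UMIs of Apoe. Without it the ratio of Cd74 was 0.347 (0.09996 to 1.51) in place of 0.0126, and that of Apoe 0.499 (0.317 to 0.812) in place of 0.202. Erythroid-marker cells, the gauge of free RNA, held Apoe at 163 and 513 CPM in the labelled control and knockout. All members held it at 261 and 52.6 CPM, so free RNA may enter this ratio, which was not tested. Another cell held 108 of the 147 UMIs of Ifi27l2a, an interferon-induced gene, and 63 of the 72 UMIs of Ms4a4c. Without it Ifi27l2a stood at 0.719 (0.509 to 1.04) in place of 0.209, and Ms4a4c at 1.94 (0.991 to 4.33) in place of 0.265, which turns its direction. Cd27 (0.296), Lgals9 (0.303), Pglyrp1 (0.320), Ifitm1 (0.330), the annotated pseudogene Hist1h2al (0.336), H2-Ke6 (0.368) and Sox4 lay between 0.375 and 0.482 without their top cell. Of these, Cd27, Ifitm1 and Sox4 are among the genes high in Ly6c2-low members. Over members with at least 1000 CPM of Ly6c2 the intervals of Cd27, Ifitm1 and Sox4 included 1. So did those of Pglyrp1 (0.463, 0.202 to 1.24) and H2-Ke6 (0.435, 0.208 to 1.02). Lgals9 (0.238, 0.119 to 0.511) and Hist1h2al (0.306, 0.232 to 0.409) stayed below 1. Over members with Xist and no Y-linked UMIs the log2 ratio turned to 1.16 for Apoe, 1.65 for Lgals9, 2.08 for Pglyrp1, 2.07 for Ifitm1 and 1.16 for Sox4. Elane-high precursors gave ratios above 1 for Ifitm1 (1.82, 1.23 to 2.79) and Sox4 (2.07, 1.32 to 3.40). Lgals9, Pglyrp1 and Hist1h2al were lower in the labelled knockout there too, at 0.691, 0.741 and 0.526. Hbb-bs, a haemoglobin gene, had a ratio of 0.258 in members, 0.0500 in Elane-high precursors and 0.185 in Lyz2-high cells, while the 7 erythroid markers searched gave 1 and 3 UMIs in the members. Serinc3, a membrane carrier gene that was chosen after its values were seen, stood at 241 against 571 CPM in members (0.422, 0.347 to 0.515), with ratios of 0.561 in Elane-high precursors and 0.412 in Lyz2-high cells.

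The other gene lists had medians on both sides of that of all genes by label, from -0.96 for late granule genes to 0.61 for coagulation genes. Both of these lists hold genes of the rule, so their medians are partly bound to the choice. Ngp and Camp belong to the former, whose median was the value of Ngp itself, and F13a1 belongs to the latter. Primary granule genes had a median log2 ratio of 0.070 over 14 members, with 3 higher (Elane, Cst7 and Gstm1) and 1 lower (Prss57), and Mpo had a ratio of 1.002 (0.898 to 1.12). Of the 3 higher genes Elane was part of the choice. Among 5 measured late granule genes 3 were lower (Ngp, S100a8 and S100a9), and all 3 were also lower in the erythroid-marker cells of the labelled knockout than in those of the labelled control. Of these 3 lower genes Ngp was part of the choice. S phase genes had a median of 0.32 with 2 of 18 higher, G2/M genes -0.18 with 1 of 19 higher (Mki67), and 0 of either list were lower. Lysosome genes had a median of 0.19, with Ctsc and Lamp2 higher among 13. Of 6 measured cytokine receptor genes Ifngr1 and Tnfrsf1a were higher. Among pattern recognition and Fc receptor genes, with a median of 0.47, 2 of 5 were higher, Fcgr3 at 132 against 62.1 CPM (2.13, 1.26 to 3.87) and Ly86 at 254 against 157 CPM (1.61, 1.16 to 2.31). Coagulation genes had 2 of 4 higher, F10, the factor X gene, at 95.2 against 41.4 CPM (2.30, 1.22 to 4.89) and S100a10 at 1016 against 649 CPM (1.56, 1.33 to 1.85). F13a1, which was part of the choice, had a ratio of 1.501 (1.25 to 1.81). Oxidative phosphorylation genes had a median of 0.22 with 0 of 15 past 1.5-fold. Nucleolar genes had a median of -0.24 with Nop58 and Wdr12 lower among 10. Immediate-early genes had a median of -0.37 over 9, with Jun higher and Junb and Dusp1 lower. Only 3 interferon response genes had enough UMIs, with a median of -0.85, and of these Ifi27l2a and Ifitm3 were lower. Id and E protein genes had a median of -0.70 over 3, and 2 nonclassical monocyte markers one of -0.29. The chemokine receptor gene Cxcr4, which holds cells in the marrow, had a ratio of 2.75 (1.36 to 6.49), resting on only 8 UMIs of the labelled control against 156, and Pecam1, the CD31 gene of the sort, stood at 45.6 against 95.1 CPM (0.479, 0.298 to 0.799).

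Markers of other cell types were low in the members, with exceptions. Neutrophil markers, mostly Elane and partly limited by the rule, gave 321 and 3306 UMIs, or 1328 and 1932 CPM. They stood at 689 and 576 CPM in Lyz2-high cells and at 19956 and 19122 CPM in Elane-high precursors. Erythroid markers summed to 1 and 3 UMIs, T and NK cell markers to 1 and 1, and megakaryocyte and platelet markers, partly limited by the rule, to 3 and 7. Conventional dendritic cell markers gave 189 UMIs in the labelled control, where 1 cell reached 39312 CPM, and 44 in the labelled knockout, with Xcr1 at 0 in both. That cell was the shallowest labelled-control member, with 4477 UMIs, of which 108 were of Cd74. It held 12 UMIs of Ly6c2 and 8 of Ms4a6c but 0 of Irf8, so the name of monocyte progenitor applies to it less clearly. Basophil and mast cell markers gave 16 and 261 UMIs, 66.2 and 153 CPM, and plasmacytoid dendritic cell markers, which here were mostly Bst2, 69 and 379 UMIs, 285 and 221 CPM. Cells with Y-linked and no Xist UMIs numbered 6 and 56 among the members, cells with Xist and no Y-linked UMIs 2 and 17, and cells with neither 4 and 19. The part of any of these in the label differences was not tested.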

How the data were processed

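The authors deposited UMI counts per gene and cell for 4 10x Chromium libraries, read on a NextSeq 500 with 26 and 57 cycles per the labels' protocols. Cell Ranger, Seurat and mm10 are named in the submitters' processing notes, with versions not given. Counts were used as deposited, with Python 3.11.15, numpy 2.4.6, scipy 1.17.1, pandas 2.3.3, Scrublet in scanpy 1.11.5 and matplotlib 3.10.9. Doublets were marked and not removed. Coordinates are from the GENCODE annotation of GRCm38. Members were compared by label for genes with at least 10 UMIs expected in the smaller sum, and with each other class with 20 CPM added. Log2 ratios had 0.5 UMIs added. Named were up to 12 genes per direction by size of ratio, up to 8 per direction by correlation with Mpo or Irf8 among genes seen in 20% of members of each library, and genes of 23 lists. Mitochondrial, ribosomal protein and numbered gene models were not named by label. Interval code was tested on simulated data. The members and lists were chosen with earlier results of these data known, and the Ly6c2 split and 3 alternatives after seeing the data. With 1 library per group, label, animal and library cannot be told apart.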

Additional observations from a re-analysis of the deposited data

Results flagged for a closer look

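The same rule was met by 5 of 1857 cells, 0.269% (0.0875 to 0.627), in the labelled-knockout library of the Sca-1-positive gate for type H vessels, which lies outside the comparisons above. In the labelled-control library of that gate it was met by 1 of 806 cells, 0.124%. The 5 cells held 70309 UMIs, with 54 of F13a1, and Ly6c2, Ms4a6c and Irf8 were each found in 5 of 5. Mpo was found in 1 of them, with 22 UMIs, and Id3 in 4, with 10 UMIs. With so few cells, the difference between these 2 libraries was within the interval of the larger share.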

How the results depend on the processing

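The share ratio lay between 2.78 and 6.90 over all alternatives. Of the values that answer a comparison, 112 kept within 1.5 times or their interval and 29 did not. Of the values for single genes and lists, 1078 kept, 181 moved and 15 turned direction.

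With F13a1 from 1 UMI, 447 genes were lower by label, Slpi had a log2 ratio of -1.89 and the Id and E protein genes a median of 0.031. With F13a1 from 5 UMIs, G2/M cells were 100% of labelled-control members. Counting F13a1 after thinning to 3000 UMIs gave member shares of 1.71% and 10.5%, 168 lower genes, 42 higher and 172 lower against Lyz2-high cells, and G2/M cells at 94.8% of labelled-knockout members. A Lyz2 limit of 1% gave 32 genes higher against Elane-high precursors, G2/M cells at 100% in the labelled control, and log2 ratios of 0.59 for Ifi27l2a and 1.64 for Ms4a4c, with a median of 0.59 for interferon genes. An Elane limit of 0.1% gave a labelled-knockout share of 6.33%, 30 genes higher against Elane-high precursors and 61 against Lyz2-high cells. A minimum of 5 expected UMIs gave 517 genes higher and 708 lower by label. A minimum of 20 gave 103 higher and 111 lower by label, with 38 higher against Elane-high precursors and 61 against Lyz2-high cells. Adding 2 UMIs gave 130 higher.

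Members with Xist and no Y-linked UMIs, of which the labelled control had 2, gave 57 genes higher and 68 lower, with log2 ratios of -0.13 for Trappc1, -0.12 for Lgals1, -0.999 for Slpi, -0.22 for Tyrobp, 1.16 for Apoe, 1.65 for Lgals9, 2.08 for Pglyrp1, 2.07 for Ifitm1 and 1.16 for Sox4. Thinning to 2000 UMIs gave S phase cells at 75.3% and G2/M cells at 79.6% of labelled-knockout members, and thinning to 5000 gave S phase cells at 95.7% there and G2/M cells at 100% in the labelled control. At least 1 UMI of the list put S phase cells at 96.8%. Members with at least 1000 CPM of Ly6c2, an alternative added after seeing the data, gave 115 genes higher and 173 lower among 1729. Without the labelled-control cell that held most of its UMIs, also added, Ms4a4c had a log2 ratio of 0.95, and without the Cd74-rich cell 240 genes were higher and 273 lower. The cause of these shifts was not tested.

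Leaving out members with cell cycle UMIs left 1 and 0 cells and gave no value. No paired analysis was possible because each group was 1 library, and no replicate was left out for the same reason. The 12 labelled-control members limit every label value.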
